A study of Mus musculus with 4 samples.

Results

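Metallothioneins and enzymes that remove superoxide and heme were followed in SVEC cells, an established mouse line derived from the cells that line vessels, after exposure to lipopolysaccharide (LPS), the endotoxin of Gram-negative bacteria. The genes were chosen by symbol, with earlier results on these arrays known: Mt1, Mt2, Sod1, Sod2 and Hmox1. Of these 5 genes, 4 had spots that carried their symbol alone, 8 spots of the 24344 with a single gene symbol and 4 genes of 11138 in all. Mt1 had no such spot and was not analysed here, so Mt2 is the only metallothionein among the genes described. The groups were cells after 24 h with LPS and cells after 4 h with LPS, each measured against control cells on the same array, with 2 arrays per time. The labels give 50 ng/ml of LPS for 3 of the 4 arrays, and name no genotype, other agent or separate cultures. RNA was amplified, and LPS RNA carried Cy5 on the first array of a time and Cy3 on the other, named a dye reversal in the labels. The 2 arrays of a time were therefore read as 1 RNA pair measured again with exchanged dyes, so that the spread between them is technical and no test over cultures was possible.

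Metallothioneins are small, cysteine-rich proteins that bind zinc and copper. Their genes are switched on by the zinc sensor Mtf1, which binds metal response elements in their promoters, and they are known as genes that inflammatory signals raise in mouse liver. Sod1 (cytosol, copper and zinc) and Sod2 (mitochondria, manganese) convert superoxide to hydrogen peroxide, and Sod2 is a textbook target of NF-kB. Hmox1 opens the heme ring, which frees iron, and is held down by Bach1 and induced by Nfe2l2 (NRF2).

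The RefSeq promoter table (GRCm38.p6) held windows for Mt2, Mt1, Sod1 and Sod2, and the windows of 3 measured genes are shown because Mt2 was called at 24 h and the superoxide dismutases were not. Each run gives the 250 bases before the annotated start on the plus strand, 5′ to 3′, with capitals at matches to the core of the metal response element, searched on both strands as TGCACNC and TGCGCNC. Mt2 lies at chr8:94172368-94172617, Sod1 at chr16:90220512-90220761 and Sod2 at chr17:13007589-13007838.
Mt2: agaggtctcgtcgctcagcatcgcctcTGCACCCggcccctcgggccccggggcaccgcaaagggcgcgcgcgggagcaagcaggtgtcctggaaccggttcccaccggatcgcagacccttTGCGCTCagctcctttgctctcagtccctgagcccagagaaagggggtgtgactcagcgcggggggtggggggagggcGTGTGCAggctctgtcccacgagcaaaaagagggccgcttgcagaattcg
Sod1: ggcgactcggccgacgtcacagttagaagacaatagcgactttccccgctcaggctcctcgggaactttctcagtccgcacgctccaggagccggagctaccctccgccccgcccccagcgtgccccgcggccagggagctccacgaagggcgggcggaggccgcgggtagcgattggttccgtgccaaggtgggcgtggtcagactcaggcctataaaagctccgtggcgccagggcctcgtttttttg
Sod2: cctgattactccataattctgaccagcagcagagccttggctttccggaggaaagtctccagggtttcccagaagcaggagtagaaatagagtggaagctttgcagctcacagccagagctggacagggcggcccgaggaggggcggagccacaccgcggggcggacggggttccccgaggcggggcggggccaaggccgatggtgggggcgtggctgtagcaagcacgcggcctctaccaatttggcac

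The Mt2 window held 3 matches to the metal response core. They began 223, 128 and 50 bases before the annotated start, the last of them on the minus strand. Of 32851 windows of the same length in the table, 21.4% held at least 1 such match and 1.26% at least 3. The Sod1 and Sod2 windows held 0 matches, and the window of the unmeasured Mt1, on the same chromosome as Mt2, held 1. A core of the antioxidant response element, TGACNNNGC on either strand, matched once in the Mt2 window and once in the Sod1 window, against 10.2% of all windows with at least 1. The STAT motif TTCNNNGAA, which reads the same on both strands, matched once in the Sod2 window, against 7.02% of all windows. These matches describe letters and are not measured sites.

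Every value below is a log2 ratio of LPS over control, with the median spot of each array at 0, and the reversed arrays turned in sign. The direction is likely only, since it rests on the labels placing LPS in Cy5 on the unreversed arrays; the opposite convention would turn every sign. Over all spots, the deposited values of a pair correlated at -0.04 at 24 h and -0.23 at 4 h, and genes correlated at 0.10 and 0.48 between the arrays of a time after turning, lower at 24 h than at 4 h. A gene was called higher or lower when the mean of both arrays was at least 2-fold (1 on the log2 scale) and both arrays by themselves were at least 1.5-fold in that direction. Because these genes were picked with their ratios known, the calls are descriptions. A ratio carries no level, so neither the abundance of a transcript nor the endothelial label could be checked from levels, and fewer cells with a transcript cannot be told apart from less transcript per cell.

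Mt2 was high after 24 h and near control after 4 h. At 24 h its 2 spots read 3.47 and 3.60 with LPS in Cy5 and 2.76 and 2.76 with LPS in Cy3. At 4 h they read 0.24 and 0.03 with LPS in Cy5 and -0.54 and -0.81 with LPS in Cy3. All 4 spot values at 24 h thus lay above all 4 at 4 h. The mean was 3.15 ± 0.55 (SD, 2 arrays) at 24 h, or 8.87-fold, and -0.27 ± 0.57 at 4 h. At 24 h the mean ranked 4th of 11138 genes, and at 4 h 7914 genes had a higher mean; under the opposite convention both ranks would count from the lowest mean. The 2 Mt2 spots lay 0.13 and 0.0043 apart on the 24 h arrays, where the median gap between spots of an oligonucleotide was 0.25 and 0.27. The sources used here do not give the oligonucleotide sequences, so signal from the closely related Mt1 in the Mt2 spots could not be told apart.

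**Figure D1:**
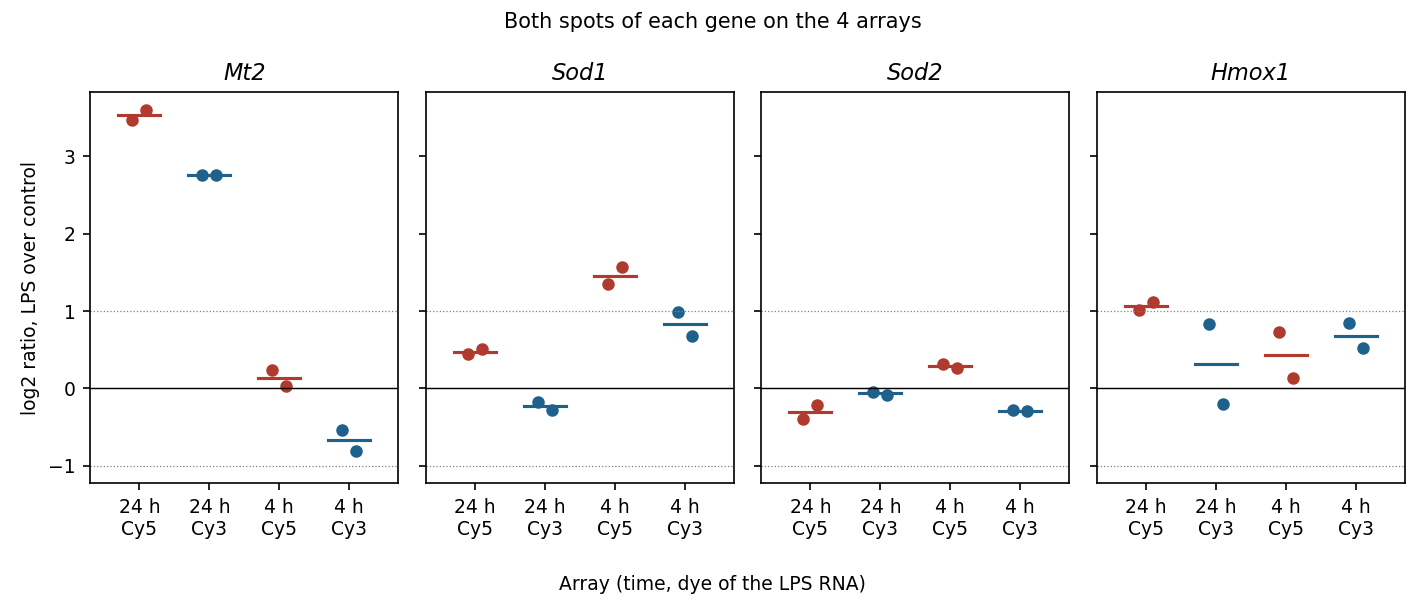
Log2 ratio of LPS over control (y axis) for both spots of Mt2, Sod1, Sod2 and Hmox1 on each array (x axis, by time and dye of the LPS RNA; red for Cy5, blue for Cy3). Short bars are the mean of both spots and dotted lines mark a 2-fold ratio; the Mt2 spots at 24 h, at 2.76 to 3.60, stand above all other spots shown.

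Sod1 was the reverse in time, higher after 4 h and near control after 24 h. At 24 h its spots read 0.44 and 0.51 with LPS in Cy5 and -0.18 and -0.28 with LPS in Cy3. At 4 h they read 1.34 and 1.57 with LPS in Cy5 and 0.99 and 0.68 with LPS in Cy3. The times did not overlap, and the arrays at 24 h lay on both sides of 0. The mean was 0.12 ± 0.50 at 24 h and 1.14 ± 0.44 at 4 h (SD, 2 arrays), and 1107 genes had a higher mean at 4 h, or a lower one under the opposite convention. With LPS in Cy3 alone the 4 h ratio was 0.83, and under quantile normalization the 4 h mean was 0.89, both short of 2-fold.

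The value of Sod1 at 4 h moved with a list of 32 measured abundant transcripts, housekeeping and cytoskeletal genes, whose median was 0.18 at 24 h and 1.76 at 4 h. At 4 h 20 of the 32 were called higher and 0 lower, against 8.74% and 5.77% of all genes. At 24 h 2 were higher and 0 lower, against 1.68% and 0.799%. On the single 4 h arrays the median of the list was 1.96 and 1.36. With each array centred on this list, Sod1 lay at -0.06 at 24 h and at -0.51 at 4 h, so its direction at 4 h turned. The part of abundance in the Sod1 value was not tested, and intensities were not in the table used here. Mt2 was 2.96 at 24 h and -1.93 at 4 h under that centring, so its call at 24 h held.

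Sod2, the dismutase known as an NF-kB target, met the rule at neither time. At 24 h its spots read -0.40 and -0.21 with LPS in Cy5 and -0.04 and -0.08 with LPS in Cy3. At 4 h they read 0.31 and 0.26 with LPS in Cy5 and -0.28 and -0.30 with LPS in Cy3. At 4 h each pair of spots agreed within 0.05, and the arrays lay on opposite sides of 0. The part of the dye in these signs was not tested, because dye and array could not be told apart. The mean was -0.19 ± 0.17 at 24 h and 0.00 ± 0.41 at 4 h (SD, 2 arrays). With abundant transcripts at 0, Sod2 lay at -0.37 at 24 h and at -1.66 at 4 h, where it met the rule as lower together with Mt2 and Hmox1. That centring lowers the 4 h mean of every gene by 1.66, and the share of all genes called under it was not computed.

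By the mean of its spots, Hmox1 lay above 0 on every array, without reaching the 2-fold rule at either time. At 24 h its spots read 1.01 and 1.11 with LPS in Cy5 and 0.83 and -0.20 with LPS in Cy3. At 4 h they read 0.73 and 0.14 with LPS in Cy5 and 0.84 and 0.53 with LPS in Cy3. The mean was 0.69 ± 0.53 at 24 h, or 1.61-fold, and 0.56 ± 0.18 at 4 h, or 1.47-fold. Its 2 spots were 1.03 apart on the 24 h array with LPS in Cy3, a wider gap than in 84.7% of the 12172 spot pairs there. Of all genes, 11.9% were above 0 on all 4 arrays. With abundant transcripts at 0, Hmox1 lay at 0.50 at 24 h and at -1.10 at 4 h.

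In calls, 1 of the 4 measured genes, Mt2, was higher at 24 h, against 1.68% of all genes called higher, and 1, Sod1, was higher at 4 h, against 8.74%. None of the 4 was called lower, against 0.799% of all genes at 24 h and 5.77% at 4 h. The gene nearest above the rule was Sod1 at 4 h, with a mean of 1.14, and the nearest below it was Hmox1 at 24 h, with a mean of 0.69.

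**Figure D2:**
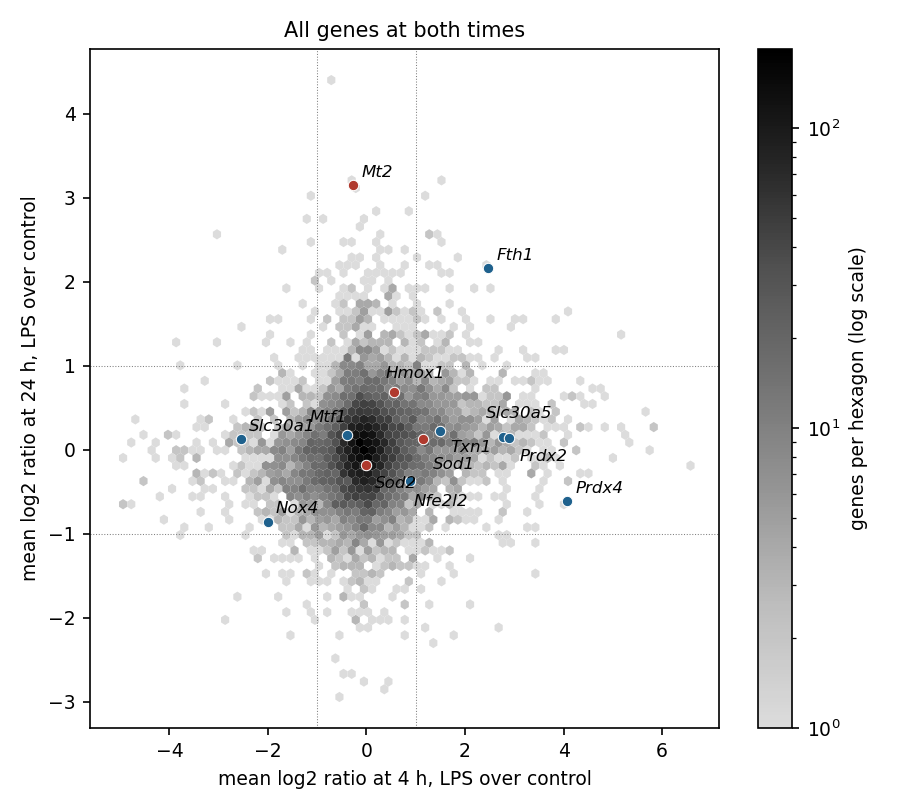
Mean log2 ratio of LPS over control at 24 h (y axis) against 4 h (x axis) for 11138 genes, shaded by the number of genes per hexagon on a log scale, with Mt2, Sod1, Sod2 and Hmox1 in red and other redox and metal genes in blue. Dotted lines mark 2-fold; Mt2 lies at 3.15 on the y axis and at -0.27 on the x axis, and Sod1 lies right of 1 on the x axis only.

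The contrast between the times was compared with the dye held the same. For Mt2 the 24 h ratio exceeded the 4 h ratio by 3.40 between the arrays with LPS in Cy5 and by 3.43 between those with LPS in Cy3. For Sod1 the same differences, 24 h minus 4 h, were -0.98 and -1.06. These 2 estimates differed by 0.03 for Mt2 and 0.08 for Sod1, where the median gap over all genes was 0.59; 2.95% and 7.54% of genes had a smaller one. The arrays with LPS in Cy5 therefore read higher than those with LPS in Cy3 by nearly the same amount at both times for these genes. For Sod2 the differences were -0.59 and 0.22, and for Hmox1 0.62 and -0.37, so that the dyes disagreed in sign. By the rule for times (means at least 2-fold apart and arrays that do not overlap), Mt2 was higher at 24 h, with a mean difference of 3.42, and Sod1 lower, at -1.02. By that rule 18.2% of all genes differed, 8.23% higher and 9.99% lower at 24 h. The call for Sod1 lay close to the limit and was lost when the arrays were scaled to one spread, under quantile normalization, at a 3-fold limit, with abundant transcripts at 0, without the 24 h array with LPS in Cy3 and without the 4 h array with LPS in Cy5. With abundant transcripts at 0, 3 of the 4 genes differed by this rule, Mt2, Hmox1 and Sod2, each higher at 24 h. That centring lowers every 4 h mean by 1.66 and every 24 h mean by 0.19. By itself it thus raises the difference of every gene by more than 2-fold, and the share of all genes under it was not computed. Whether the times shared control RNA is not stated.

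Of 15 measured genes of metallothioneins and zinc handling, Mt2 alone was called at 24 h, and at 4 h Slc30a5 was higher and Slc30a1 lower, where 1.68% of all genes were higher at 24 h and 8.74% higher and 5.77% lower at 4 h. Slc30a1, which exports zinc from the cell and is known as a target of Mtf1, had arrays at 0.07 and 0.18 at 24 h and at -2.40 and -2.71 at 4 h. Its means were 0.13 ± 0.08 at 24 h and -2.55 ± 0.22 at 4 h (SD, 2 arrays). Its arrays at 24 h lay near 0 and its arrays at 4 h were both far below it. Slc30a5, which moves zinc into the secretory pathway, had means of 0.16 ± 0.85 at 24 h and 2.76 ± 0.79 at 4 h. The metal sensor gene Mtf1 lay at 0.18 ± 0.33 at 24 h and -0.39 ± 0.23 at 4 h, with no call. The median of the list was 0.16 at 24 h and -0.08 at 4 h, against 0.02 and 0.00 over all genes.

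Around the superoxide dismutases, 0 of 8 measured genes were called at 24 h, against 2.48% of all genes, and 2 at 4 h, both higher, against 8.74%. Beside Sod1 this was Atox1, the copper chaperone of the secretory pathway, at 0.21 ± 0.15 at 24 h and 1.43 ± 0.52 at 4 h. Ccs, the chaperone that hands copper to Sod1, lay at 0.14 ± 0.64 and -0.06 ± 0.03, and the extracellular dismutase gene Sod3 at -0.24 ± 0.56 and -0.10 ± 0.63, at 24 h and 4 h in each case. The median of this list was 0.08 at 24 h and 0.05 at 4 h.

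Of 11 measured enzymes that remove the peroxide made by the dismutases, 0 were called at 24 h, and 4 were higher and 0 lower at 4 h. Of all genes 2.48% were called at 24 h, and 8.74% were higher and 5.77% lower at 4 h. Prdx4, the peroxiredoxin of the endoplasmic reticulum, lay at -0.61 ± 0.24 at 24 h and 4.07 ± 2.73 at 4 h. Its 2 oligonucleotides gave -1.30 and 0.08 at 24 h, and 4.64 and 3.50 at 4 h, so they differed in sign at the later time only. Cytosolic Prdx2 lay at 0.15 ± 0.14 at 24 h and 2.89 ± 1.55 at 4 h. Plasma-type Gpx3 lay at 0.76 ± 0.33 at 24 h and 1.42 ± 0.33 at 4 h, and Gpx4, which repairs lipid peroxides and was named after its values were seen, at 0.51 at 24 h and 1.18 at 4 h. Uncalled were Gpx1, at -0.17 ± 0.11 at 24 h and 0.97 ± 0.46 at 4 h, and catalase (Cat), at 0.49 ± 0.17 at 24 h and 0.15 ± 0.35 at 4 h. Prdx1 was at 0.65 and 0.67 on the 24 h arrays and at 0.00 and 3.58 on the 4 h arrays, with both spots on the first of these at a ratio of exactly 1. The median of the list was 0.27 at 24 h and 1.18 at 4 h, where that of the abundant transcripts was 1.76.

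Of 13 thioredoxin and glutaredoxin genes, 0 were called at 24 h, and 1, the thioredoxin gene Txn1, was higher at 4 h. It lay at 0.23 ± 0.58 at 24 h and 1.49 ± 0.21 at 4 h, but its 2 spots read 0.58 and 2.70 on the 4 h array with LPS in Cy5. Of 19 glutathione genes, 0 were called at 24 h, and 1 was higher and 3 lower at 4 h. Of all genes 2.48% were called at 24 h, and 8.74% were higher and 5.77% lower at 4 h. The glutathione transferase gene Gstp1 lay at -0.18 ± 0.02 at 24 h and 2.12 ± 1.94 at 4 h, with arrays at 3.48 and 0.75 at 4 h. The lower ones were the transferases Gstm2, at -0.91 ± 0.12 at 24 h and -1.34 ± 0.43 at 4 h, and Gstm1, at -0.06 ± 0.32 at 24 h and -1.12 ± 0.24 at 4 h, whose probes may share signal with other members of the class. Mgst3, at -1.05 at 4 h, was named after its values were seen. Gclc and Gclm, the subunits of the enzyme that limits glutathione synthesis, lay between 0.06 and 0.44 at both times.

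The NRF2 pathway and heme lists gave 1 call. For the lists in this paragraph, 2.48% of all genes were called at 24 h, and 8.74% were higher and 5.77% lower at 4 h. Of 17 NRF2 pathway genes, 0 were called at 24 h and 1, the quinone reductase gene Nqo2, was higher at 4 h. Nqo2 lay at 0.22 ± 0.32 at 24 h and 1.57 ± 1.11 at 4 h. Nfe2l2 itself had arrays at -0.58 and -0.17 at 24 h and at 0.90 and 0.85 at 4 h. Its inhibitor Keap1 lay at 0.89 ± 0.47 at 24 h and 0.30 ± 0.45 at 4 h, and Nqo1, a standard NRF2 target, at 0.87 ± 1.0 at 24 h and -0.10 ± 0.10 at 4 h. On the 24 h array with LPS in Cy3 the Nqo1 spots read 3.24 and -0.07, so its 24 h mean rests on 1 spot. Of 10 heme genes 0 were called at either time; Hmox2, the constitutive heme oxygenase, lay at 0.44 ± 0.59 at 24 h and -0.35 ± 0.19 at 4 h, and Bach1, the repressor of Hmox1, at -0.33 ± 0.50 at 24 h and -0.14 ± 0.02 at 4 h. Among 12 genes that make oxidants, Nox4, the constitutive NADPH oxidase of endothelial cells, lay at -0.86 ± 0.02 at 24 h and was called lower at 4 h, at -2.01 ± 0.47. Cybb, the phagocyte oxidase, lay at -0.26 ± 0.37 at 24 h and -0.23 ± 0.20 at 4 h.

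**Figure D3:**
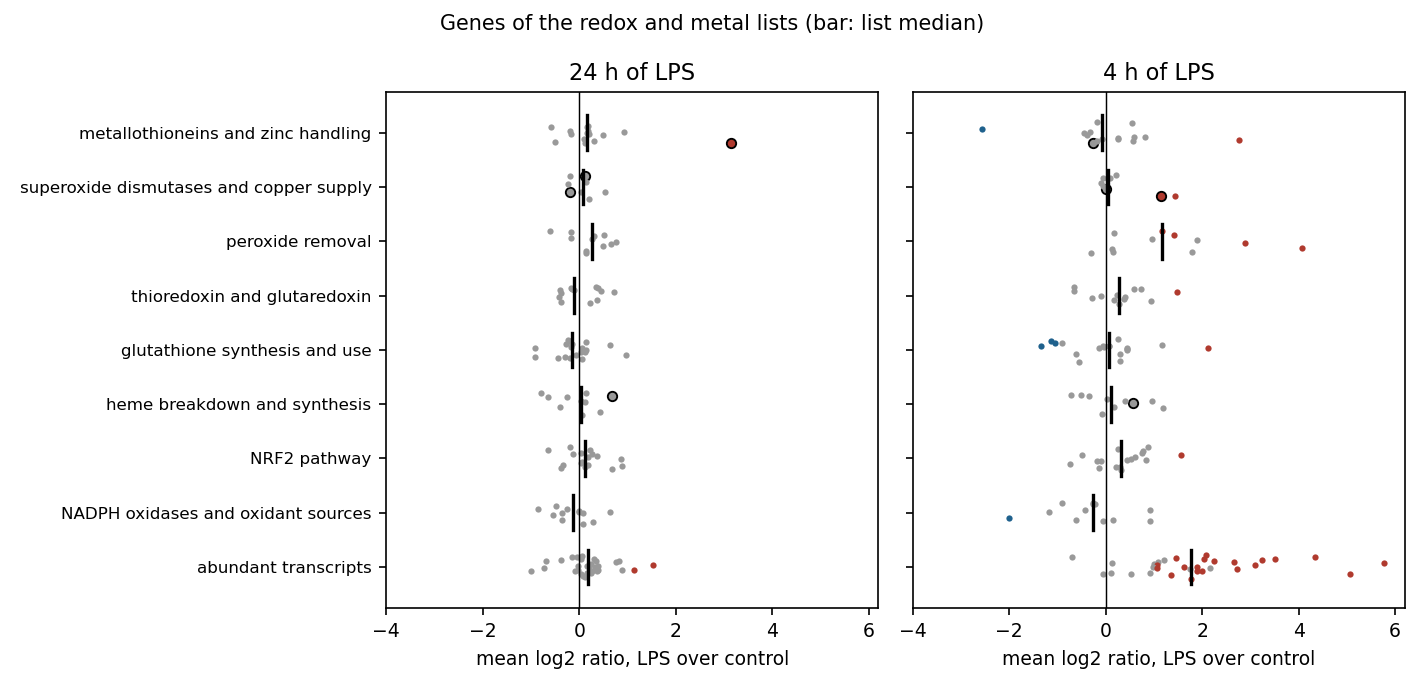
Mean log2 ratio of LPS over control (x axis) for each measured gene of 8 redox and metal lists and of the abundant transcripts (rows), at 24 h (left) and 4 h (right). Red and blue points were called higher and lower, outlined points are Mt2, Sod1, Sod2 and Hmox1, and bars are list medians; at 24 h Mt2, at 3.15, is the only called point in the 8 redox and metal lists.

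Over the 8 lists together, 105 of 132 genes were measured. At 24 h 1 was called, Mt2, which makes 0.952% of them against 2.48% of all genes. At 4 h 10 were higher and 5 lower, 14.3% of them against 14.5% of all genes. These shares do not exceed those of all genes at either time. With abundant transcripts at 0, 6 of the 10 higher genes at 4 h turned in sign, namely Sod1, Atox1, Gpx3, Gpx4, Txn1 and Nqo2, while Slc30a5, Prdx4, Prdx2 and Gstp1 stayed above 0. That centring lowers every 4 h mean by 1.66, so which genes turned follows from the size of their means alone.

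**Figure D4:**
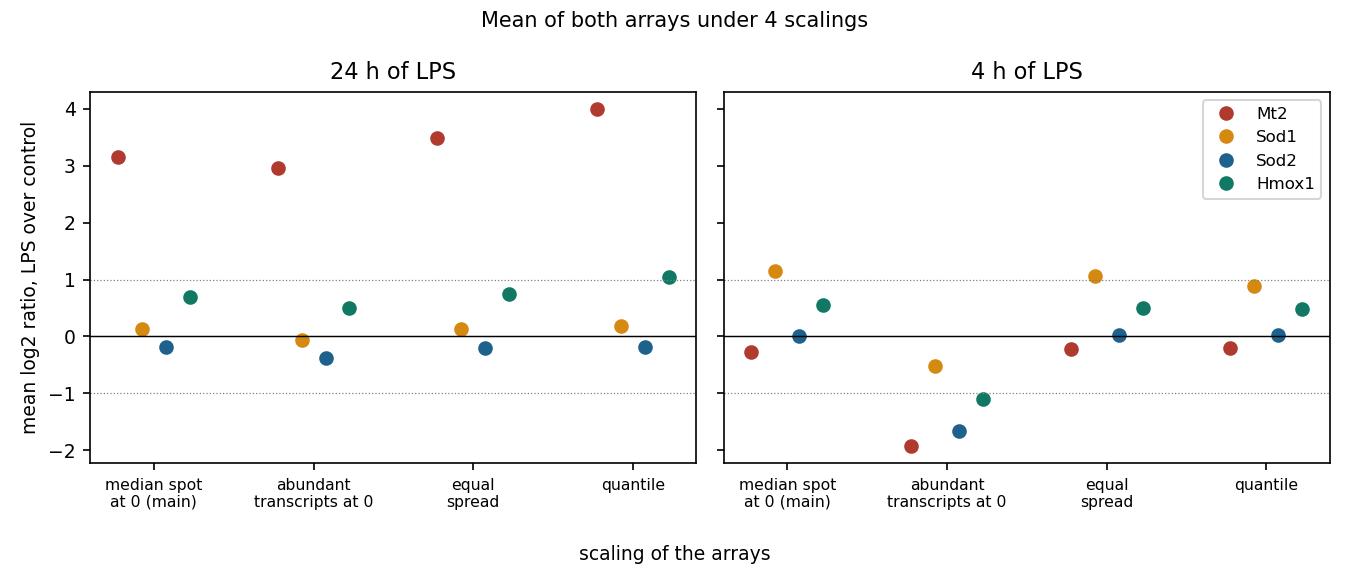
Mean log2 ratio of LPS over control (y axis) of Mt2, Sod1, Sod2 and Hmox1 at 24 h (left) and 4 h (right) under 4 scalings of the arrays (x axis). Mt2 at 24 h lies between 2.96 and 4.0 under all 4, whereas Sod1 at 4 h lies at 1.14 with the median spot at 0 and at -0.51 with the abundant transcripts at 0.

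The ferritin genes, which store the iron that Hmox1 frees, differed from each other. The heavy chain gene Fth1 was called higher at both times, at 2.17 ± 0.71 at 24 h and 2.46 ± 0.14 at 4 h, with 0.81 at 4 h when abundant transcripts were set to 0. On the 4 h array with LPS in Cy5 its 2 spots read -0.70 and 5.43, opposite in sign, which the SD between arrays does not show. The light chain gene Ftl1 lay at 0.07 ± 0.52 at 24 h and was lower at 4 h, at -1.10 ± 0.30. With abundant transcripts at 0, Ftl1 lay at -2.76 at 4 h. Of all genes 1.68% were called higher at 24 h, and 8.74% were higher and 5.77% lower at 4 h.

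Over the 4 arrays, the genes nearest to Mt2 by Euclidean distance were Flicr (0.85), Gpr165 (1.03) and Atp6v1c2 (1.18), where the median distance of all genes from Mt2 was 4.70. Each rests on 1 oligonucleotide, and their means at 24 h were 2.82, 3.18 and 2.61. Nearest to Sod1 were Slc16a1, a lactate transporter, at a distance of 0.05, Ltbp3 at 0.19 and Hells at 0.23, against a median of 2.07. Since these medians differ, the distances for Mt2 and Sod1 are not comparable.

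Markers of several cell types were also on the arrays. Beside the counts below, 1.68% of all genes were called higher and 0.799% lower at 24 h. At 4 h these shares were 8.74% and 5.77%. The median of 9 leukocyte and macrophage markers was 0.38 at 24 h and 0.01 at 4 h, with Coro1a called at 24 h, and means from -1.34 to 1.29 at 24 h and from -0.61 to 0.49 at 4 h. Of 9 mural and fibroblast markers 1 was higher at 24 h, and 4 were higher and 1 lower at 4 h, with medians of 0.26 and 0.04. Of 12 endothelial markers 0 were called at 24 h and 1, the junction gene Cdh5, was lower at 4 h, with medians of -0.03 and -0.04. Cdh5 lay at -0.06 ± 0.16 at 24 h and -3.47 ± 2.12 at 4 h. The medians at 24 h and 4 h of the 6 epithelial markers were -0.24 and -0.18, and those of the 2 erythroid ones 0.35 and 0.67, with 1 epithelial marker lower and 1 erythroid marker higher at 4 h. The part of these markers in the values of Mt2, Sod1, Sod2 and Hmox1 was not tested.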

How the data were processed

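RNA of LPS-treated and control SVEC cells was amplified and hybridised on 2-colour long-oligonucleotide arrays, per the labels. The deposited table holds 1 log2 ratio of the 2 dyes per spot for 32448 spots; the log2 scale was read from the values, which have both signs and lie on steps of 0.01 of the linear ratio (within 0.02 of a step) for 99.96% of spots or more on every array. The sources used here do not give the scanner, the background correction or the normalization, and the number of arrays limits the precision. Deposited medians were 0. Spots were named from the platform annotation; 98 with several symbols and 8006 without were left out. Entrez identifiers of 98.9% of named spots were in the RefSeq table (GRCm38.p6), and 0 symbols changed.

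Each array was centred on its median, reversed arrays were turned in sign, spots of a gene were averaged, and arrays of a time were averaged with their SD. No filter on low signal could be set. Calls used Python 3.11.15, NumPy 2.4.6 and pandas 2.3.3, and their code was tested on simulated data. The simulation held large set changes and normally distributed noise, so it does not give the error rate of the calls on these arrays. Genes, lists and rules were chosen with earlier results of these data known. Named were the 5 genes where measured, 18 fixed pathway genes, up to 3 called genes per list with the largest mean, and the 3 nearest genes by distance. Alternatives were other centring, scaling, quantile normalization, other fold limits, exact ratios of 1 as not measured, medians over spots, single oligonucleotides and leaving out each array.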

Additional observations from a re-analysis of the deposited data

Results flagged for a closer look

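For 7 of the named genes both arrays at 24 h lay on one side of 0 and both arrays at 4 h on the other. The share of all genes with this pattern was not computed, so the 7 cannot be called many or few. The difference between the times was not tested, because each time is 1 RNA pair. As the mean log2 ratio at 24 h minus that at 4 h, it was 2.68 for the zinc exporter gene Slc30a1, -4.68 for Prdx4, -2.29 for Gstp1, -1.25 for Nfe2l2, -1.14 for Gpx1, 0.97 for Nqo1 and 0.79 for Hmox2. The 24 h means of Nqo1 and Hmox2 each rest on 1 spot of the array with LPS in Cy3, at 3.24 for Nqo1 and 1.55 for Hmox2, whose duplicates read -0.07 and 0.16. For Prdx4, 1 oligonucleotide lay at 0.83 and -0.68 on the 24 h arrays, on both sides of 0, and the other at -1.72 and -0.88. Several of the 24 h values are small, with arrays at 0.07 and 0.18 for Slc30a1 and at -0.25 and -0.09 for Gpx1. The duplicate spots of Gpx1 lay on both sides of 0 on each 24 h array, at 0.11 and -0.60 and at -0.19 and 0.01. So did those of Slc30a1 and Hmox2 at 24 h with LPS in Cy5, and of Gstp1 with LPS in Cy3. At 4 h with LPS in Cy3 the same held for Nqo1 and Hmox2. With abundant transcripts at 0, the 4 h means of Nfe2l2 and Gpx1 turned in sign, to -0.78 and -0.69, and the 24 h mean of Slc30a1 to -0.06.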

How the results depend on the processing

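Over 207 recomputed values, 160 stayed within the spread between arrays or within 1.5 times the count, 46 moved beyond it and 1 reversed. Only a change of sign in a gene already called with the median spot at 0 was counted as reversed. Sign changes of uncalled means were counted as stayed or moved, such as Hmox1 at 4 h, from 0.56 to -1.10 with abundant transcripts at 0. Many of the 160 could not have moved. With 2 arrays per time, leaving 1 out shifts a mean by less than their SD, and leaving out an array of the other time changes nothing. For the 4 genes, uncentred values, medians over both spots, single oligonucleotides and dropped ratios of exactly 1 return the same means. The 160 is therefore no measure of stability. Mt2 was called higher at 24 h under every alternative run, from 2.76 to 3.54 with 1 array left out and at 4.0 under quantile normalization. With the abundant transcripts at 0, Sod1 reversed at 4 h (-0.51). At 4 h Mt2 then lay at -1.93, Sod2 at -1.66 and Hmox1 at -1.10, and Sod2 lay at -0.37 at 24 h. Of the 4 genes, 3 were then called at 4 h, all lower. The pathway lists gave 4 calls at 24 h (3 lower) and 79 at 4 h (2 higher, 77 lower). That centring lowers every 4 h mean by 1.66, and no share of all genes was computed to set beside any count under it. Sod1 was not called at 4 h under quantile normalization, at 3-fold or without the 4 h array with LPS in Cy5, where 0 genes passed. The count of genes that differed between the times was 1 in place of 2, with Mt2 alone, under equal spread, under quantile normalization and at 3-fold, and 3 with the abundant transcripts at 0 (Mt2, Hmox1 and Sod2, without Sod1). At 1.5-fold (each array 1.2-fold), Hmox1 joined Mt2 at 24 h (2 genes), as it did without the 24 h array with LPS in Cy3, and the lists gave 15 calls at 24 h (10 higher, 5 lower) and 37 at 4 h (23 and 14). At 3-fold the lists gave 6 calls at 4 h (4 and 2). Equal spread gave 4 list calls at 24 h (2 and 2) and 3 lower at 4 h, and quantile normalization 6 at 24 h (4 and 2) and 3 lower at 4 h. With 1 array left out, calls among the 4 genes ranged from 1 to 2 at 24 h and from 0 to 1 at 4 h, those that differed between times from 1 to 2, and list calls from 1 to 9 at 24 h (1 to 5 higher, 0 to 4 lower) and from 15 to 26 at 4 h (10 to 19 higher, 5 to 7 lower). With 1 array left out, Hmox1 ranged from 0.32 to 1.06 at 24 h and from 0.43 to 0.68 at 4 h, Mt2 at 4 h from -0.67 to 0.13, Sod1 from -0.23 to 0.47 at 24 h and from 0.83 to 1.46 at 4 h, and Sod2 from -0.31 to -0.06 at 24 h and from -0.29 to 0.29 at 4 h. The cause of these changes was not tested. A lower fold limit admits more genes by construction. No paired analysis was possible because the labels give no replicate numbers and each time is 1 RNA pair. Without intensities, signal over background is unknown for every spot.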

Other observations

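Of the 105 measured redox and metal genes, 17 were above 0 on all 4 arrays, 16.2% against 11.9% of all genes, and 11 were below 0 on all 4, 10.5% against 10.9%. The genes named here were chosen after their values were seen, as those whose array value nearest to 0 still lay farthest from it. In that order Gpx3 and Gpx4, whose means are given above, stood between Xdh and Slc39a7. Xdh, the xanthine oxidase that makes superoxide and uric acid, had arrays at 0.60 and 0.69 at 24 h and at 0.92 and 0.91 at 4 h, a spread small beside its ratio. Slc39a7, which releases zinc from the endoplasmic reticulum, had arrays at 0.98 and 0.85 at 24 h and at 1.12 and 0.49 at 4 h. Below 0 throughout, Nox4 was followed by Gstm2 and by Fech, the last enzyme of heme synthesis, with means of -0.40 at 24 h and -0.72 at 4 h. With abundant transcripts at 0, any 4 h mean between 0 and 1.66 turns in sign, among them those of Xdh and Slc39a7.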
